A study of Mus musculus with 6 samples.

Results

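The genes examined here are 10 that hold back or carry out the passage from G1 into S phase: the INK4 inhibitors Cdkn2a, Cdkn2b, Cdkn2c and Cdkn2d, the p27 inhibitor Cdkn1b, the RB proteins Rb1, Rbl1 and Rbl2, and the factors E2f1 and E2f4. They were chosen by symbol from the 23420 genes of the deposited table, and all 10 were present and passed the filter on low counts. Polyadenylated RNA was measured in mesenchymal stromal cells (MSCs), adherent cells grown out of the femoral bone marrow of female C57BL/6 mice aged 6 to 8 weeks and transduced at passage 5, with no cloning or sorting described. The 3 libraries of the group Ctl MSC came from cells that received the empty AP2 retroviral construct, which carries eGFP. The 3 libraries of the group MSC-TPr came from cells that received the same construct coding for the thymoproteasome (TPr) subunits β1i, β2i and β5t, so that both groups share the vector, the marker and the transduction. Neither the labels nor the methods say whether the numbered libraries of a group came from separate mice or cultures, and p-values therefore measure the spread between these libraries, which may be technical.

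INK4 proteins bind CDK4 and CDK6 and keep them from pairing with D-type cyclins, while p27 binds cyclin E and cyclin A complexes with CDK2. Active CDKs phosphorylate the RB proteins, which then release E2F factors and allow genes of DNA replication to be transcribed. In cultured mouse stromal cells and fibroblasts, the Cdkn2a locus becomes more active with passage and is a classical mark of senescence, and cultures that escape senescence often do so through loss of Cdkn2a, of p53 or of RB function. Cdkn2a codes for a pair of unrelated proteins from separate first exons: INK4a (p16), which acts on CDK4 and CDK6, and ARF, which acts on MDM2 and thereby on p53. The count of Cdkn2a is the sum over both, so that INK4a and ARF cannot be told apart in these data.

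The starts of Cdkn2a and of Rbl1 are shown because these genes stand for the contrasting patterns described below. The values of Cdkn2a did not overlap between the labels, although the main test over all 6 libraries did not pass its threshold. Those of Rbl1 differed between libraries of the same label. The sequences come from RefSeq (GRCm38.p6, the mm10 assembly), run from 250 bases before the start site to 50 bases after it, and have E2F motifs in capitals. Cdkn2a lies on chromosome 4 from 89274471 to 89294653 on the minus strand, and its starts are 12427 bases apart. The upstream start precedes the ARF first exon (chr4:89294570-89294869) and the downstream start the INK4a first exon (chr4:89282143-89282442). Rbl1 lies on chromosome 2 from 157145893 to 157204534 on the minus strand, with its start in chr2:157204485-157204784.

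Cdkn2a, ARF start: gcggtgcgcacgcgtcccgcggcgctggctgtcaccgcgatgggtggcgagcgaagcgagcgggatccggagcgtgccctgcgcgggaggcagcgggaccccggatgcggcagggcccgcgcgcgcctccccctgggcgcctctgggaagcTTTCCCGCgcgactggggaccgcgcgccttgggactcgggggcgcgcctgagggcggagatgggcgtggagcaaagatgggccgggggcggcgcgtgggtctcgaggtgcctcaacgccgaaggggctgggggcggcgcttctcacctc
Cdkn2a, INK4a start: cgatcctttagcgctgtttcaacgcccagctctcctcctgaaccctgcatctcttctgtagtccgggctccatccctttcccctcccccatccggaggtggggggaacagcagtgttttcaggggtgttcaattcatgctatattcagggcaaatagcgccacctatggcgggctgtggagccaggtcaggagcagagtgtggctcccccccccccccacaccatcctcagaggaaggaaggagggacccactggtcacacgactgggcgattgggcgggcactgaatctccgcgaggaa
Rbl1: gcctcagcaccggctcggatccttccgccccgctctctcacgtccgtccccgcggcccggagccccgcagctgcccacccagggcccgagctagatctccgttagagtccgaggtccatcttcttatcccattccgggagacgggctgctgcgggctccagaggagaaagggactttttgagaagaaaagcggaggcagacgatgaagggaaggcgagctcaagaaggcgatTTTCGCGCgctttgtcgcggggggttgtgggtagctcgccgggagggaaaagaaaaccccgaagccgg

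The motif searched was TTTCCCGC, TTTGGCGC, TTTGCCGC or TTTCGCGC on both strands. It was found once before the ARF start of Cdkn2a, 99 bases upstream, and once before the start of Rbl1, 18 bases upstream. No match lay in the window of the INK4a start. The promoter table held 8 of the 10 members, and no window of the other 6 had a match. The E2f1 window (chr2:154569377-154569676) lay inside the gene, whose upstream end on the minus strand is 154569892. Both Cdkn2c windows, which ended at 109665622 and 109667006, lay short of that gene's upstream end at 109667189. For E2f1 and Cdkn2c, sequence before the annotated upstream end was therefore not searched. Of all 32851 promoters in the table, 2.26% held the motif. The cell cycle homology element (TTTGAA or TTCGAA, both strands), a site used in late cell cycle genes, was found once each in the windows of Cdkn2b and Rbl2, against 19.2% of all promoters. A match is a description of the letters and not a measured site.

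Between 16158756 and 22158887 reads per library fell on genes, and 3 reads, taken as the limit of detection, were worth 0.139 to 0.181 CPM (counts scaled to library size with TMM), which covers counting error only. Of 7 stromal markers, Cd44, Eng, Ly6a, Pdgfrb and Col1a1 reached at least 124.8 CPM in every library, while Thy1, which encodes CD90, had 1 read in Ctl MSC 1 and 0 in the others. Nt5e (CD73) stood at 11.4, 20.2 and 17.4 CPM in Ctl MSC and at 2.66, 4.20 and 5.24 CPM in MSC-TPr, where values here and below are listed in the order of libraries 1, 2 and 3. Its log2 fold change was -2.02 (edgeR adjusted p = 0.079), and it fell by DESeq2 (-2.01, adjusted p = 2.04e-05) and without both libraries numbered 1 (-1.99, edgeR adjusted p = 0.00081).

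Of 5 haematopoietic and macrophage markers, Ptprc (CD45), Itgam and Lyz2 were at most 0.483 CPM. Csf1r had 12, 1 and 1 reads in Ctl MSC and 0, 13 and 18 in MSC-TPr, high in Ctl MSC 1 and MSC-TPr 2 and 3. Cd68 was low in these libraries, with 1.63, 9.67 and 7.39 CPM and 14.2, 1.66 and 0.789 CPM. Of 4 endothelial markers, Pecam1, Cdh5 and Tek were at most 0.332 CPM, and Kdr ranged from 0.544 to 2.99 CPM. Cd68 and Csf1r thus moved with the members that differed between libraries of a label (Cdkn2c, Rbl1, E2f1 and Rbl2), and their part in those values was not tested.

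Of the genes carried by the construct, Psmb9 and Psmb10 went against the labels of the libraries numbered 1. Psmb9 (β1i) stood at 3.38, 0.801 and 0.827 CPM in Ctl MSC and at 0.554, 1.24 and 1.21 CPM in MSC-TPr. Psmb10 (β2i) stood at 27.8, 8.81 and 8.38 CPM in Ctl MSC and at 8.97, 17.3 and 15.2 CPM in MSC-TPr. Both were highest in Ctl MSC 1, and in MSC-TPr 1 they were lower than in MSC-TPr 2 and 3. Psmb11 (β5t) had 2, 4 and 2 reads in Ctl MSC and 4, 6 and 1 in MSC-TPr, so that no library showed the construct through this gene. Reads from the construct and from the cells' own Psmb9 and Psmb10 cannot be told apart in these counts. Psmb9 and Psmb10 were high in Ctl MSC 1 and MSC-TPr 2 and 3, as were the cell division genes below. Whether their values follow cell division or the construct was not tested. Libraries of the same label did not resemble each other in cell division. Averaged over 10 genes of cell division, log2 CPM stood at 6.74, 3.44 and 3.42 under the Ctl MSC label and 3.55, 6.63 and 6.61 under the MSC-TPr label. On this measure Ctl MSC 1 lay beside MSC-TPr 2 and 3, and MSC-TPr 1 beside Ctl MSC 2 and 3. The first principal component (axis of largest spread) of log2 CPM over all genes tested grouped the libraries likewise. It was -40.95, 50.85 and 49.23 under the Ctl MSC label and 40.5, -50.27 and -49.36 under the MSC-TPr label. The second separated the labels as given, at -48.86, -20.43 and -19.59 against 49.1, 24.21 and 15.58. Whether the labels of Ctl MSC 1 and MSC-TPr 1 were exchanged cannot be told from the labels or the files, and no fit was made with other labels. Each direction below is therefore one between the labels as given, and any separation of the groups over all 6 libraries, that of Cdkn2a, Cdkn2b and E2f4 included, holds only for these labels. Results for the members and the named genes of the lists are given over all 6 libraries and without both libraries numbered 1. In bulk RNA, a smaller share of expressing cells and less RNA per cell cannot be told apart.

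Among the inhibitors, Cdkn2a stood far above the rest. Per kilobase of exon (CPM per kb), its level was 273 ± 19.2 under the Ctl MSC label and 171 ± 16.9 in MSC-TPr (SD, n = 3 each), which placed it between the 96.8th and 98.4th percentile of 11272 tested genes in every library. Cdkn2b followed with 47.9 ± 9.56 and 33.4 ± 5.38 CPM per kb. E2f4 came next with 32.2 ± 3.05 and 49.5 ± 4.59 CPM per kb, so that Cdkn2b and E2f4 stood in the opposite order in the 2 groups. Cdkn1b stood at 13.6 and 14.9, Rbl2 at 10.98 and 8.87, and E2f1 at 9.48 and 11.9 CPM per kb in Ctl MSC and MSC-TPr. The lowest levels were those of Rb1 (5.30 and 7.59), Cdkn2c (4.87 and 5.79), Rbl1 (4.71 and 6.43) and Cdkn2d (3.49 and 3.91 CPM per kb). From Cdkn1b downward, neighbours in this order differed by less than the sum of their SDs in both groups, except E2f1 and Rb1 under the Ctl MSC label.

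Over all 6 libraries, none of the 10 members was called in MSC-TPr against Ctl MSC with edgeR's quasi-likelihood test (adjusted p under 0.05 across the 11974 genes tested, with a log2 difference of 0.5 or more either way). Among all genes tested, 0.0251% were called higher and 0.401% lower. At an unadjusted p under 0.05, 3 members differed: Cdkn2a and Cdkn2b were lower and E2f4 was higher, where 8.23% of all genes tested were lower and 6.81% higher at that threshold. The same 3 members were the ones whose groups did not overlap, 2 lower and 1 higher, where 12.1% of all genes were lower and 10.6% higher without overlap. DESeq2 called 2 of the 10, Cdkn2a and E2f4, and 5.28% of all genes to which it gave an adjusted p. The median log2 fold change of the members was 0.21, beside 0.01 for all genes tested.

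**Figure D1:**
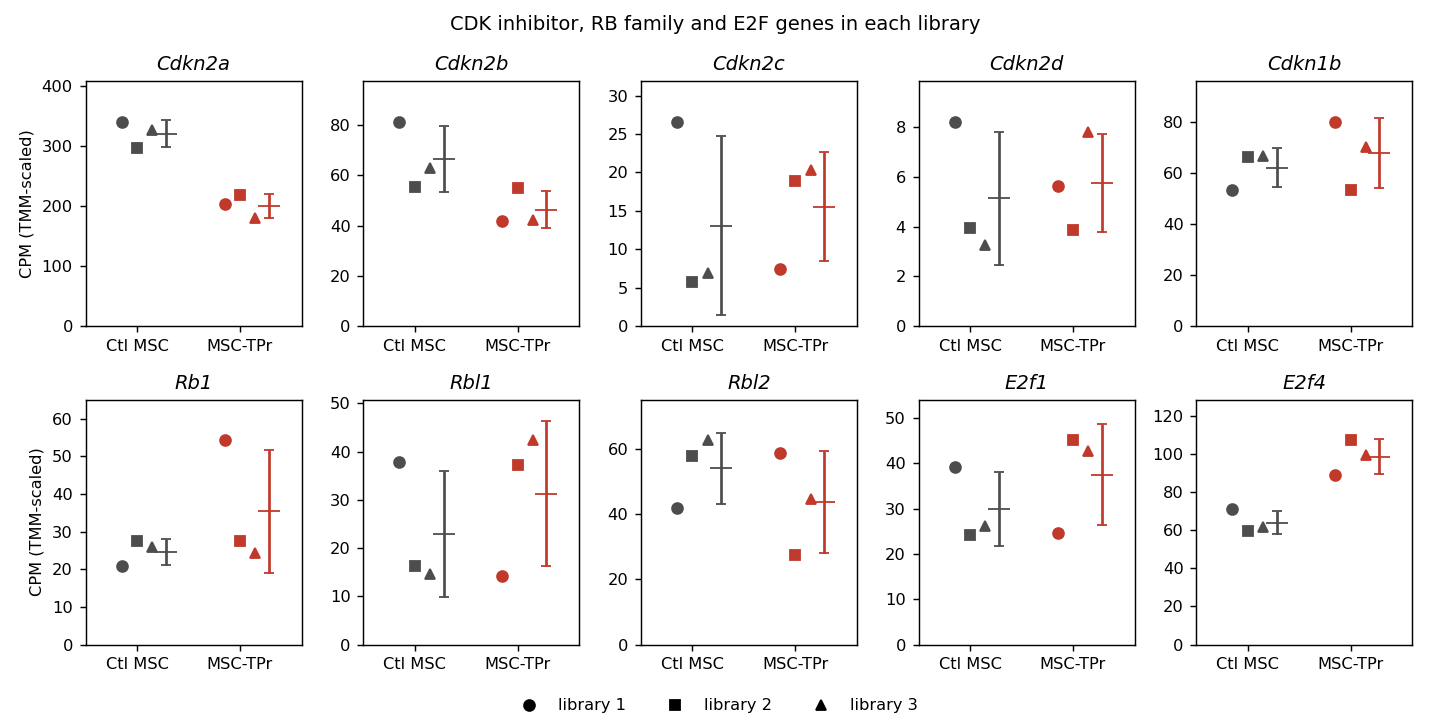
Level of each member in each library, in CPM scaled with TMM, for Ctl MSC (grey) and MSC-TPr (red); circles, squares and triangles are libraries 1, 2 and 3, and the bar to the right of each group is the mean with its SD (n = 3). Cdkn2a and Cdkn2b are lower and E2f4 is higher in every MSC-TPr library, while libraries 1 of Cdkn2c, Rbl1 and E2f1 lie apart from the other two of their label.

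Cdkn2a measured 340, 296 and 326 CPM under the Ctl MSC label, against 203, 218 and 179 CPM under the MSC-TPr label. Every MSC-TPr library lay below every Ctl MSC library, on 3668 to 5903 reads each, and the ratio of the group means was 0.625. The log2 fold change was -0.68 (SE 0.150, 95% interval -1.04 to -0.32, edgeR adjusted p = 0.133). Without both libraries numbered 1 it was -0.64 (SE 0.143, edgeR adjusted p = 0.014), a call, and DESeq2 over all 6 gave -0.67 (adjusted p = 0.0068), also a call. The libraries did not sort by cell division here: MSC-TPr 1, where division genes were low, and MSC-TPr 2 and 3, where they were high, all had less Cdkn2a than any Ctl MSC library. Leaving out each library in turn gave -0.74 to -0.60, with edgeR adjusted p from 0.125 to 0.515.

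Cdkn2b, which encodes p15 and lies next to Cdkn2a on chromosome 4 (89306299 to 89311039), measured 81.3, 55.6 and 62.9 CPM under the Ctl MSC label and 41.9, 55.0 and 42.3 CPM under the MSC-TPr label. The groups did not overlap, but MSC-TPr 2 and Ctl MSC 2 nearly met. The highest Cdkn2b of each label was in Ctl MSC 1 and MSC-TPr 2. Its log2 fold change was -0.52 (SE 0.206, 95% interval -1.02 to -0.03, edgeR adjusted p = 0.308), and without both libraries numbered 1 it was -0.28 (edgeR adjusted p = 0.197). Mtap, the next gene of the locus on the other side of Cdkn2a, measured 182 to 288 CPM under the Ctl MSC label and 202 to 271 CPM under the MSC-TPr label, with a log2 fold change of 0.03 (95% interval -0.53 to 0.59) over 6 libraries and 0.33 (95% interval -0.07 to 0.74, edgeR adjusted p = 0.14) over the 4. Reads from Cdkn2a, Cdkn2b and Mtap were present in all 6 libraries, so that transcripts of the locus were detected under both labels. Dmrta1 and Elavl2, the further neighbours, had at most 8 and 6 reads per library and were not tested.

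Cdkn2c, on chromosome 4 from 109660876 to 109667189, encodes p18, an INK4 protein known to be transcribed in dividing cells. It measured 26.6, 5.72 and 6.95 CPM under the Ctl MSC label and 7.42, 18.9 and 20.3 CPM under the MSC-TPr label. The high libraries were Ctl MSC 1 and MSC-TPr 2 and 3, the same 3 in which the cell division genes were high. Over all 6 libraries its log2 fold change was 0.25 (95% interval -1.37 to 1.88, edgeR adjusted p = 0.892), and without both libraries numbered 1 it was 1.64 (SE 0.168, edgeR adjusted p = 0.0011). MSC-TPr 1 differed from Ctl MSC 1 by -1.84 on the log2 scale, a comparison of single libraries with no replicate check. Cdkn2d, which encodes the INK4d protein and lies on chromosome 9 from 21288410 to 21291407, was the scarcest member with 59 to 168 reads. It measured 8.22, 3.95 and 3.25 CPM under the Ctl MSC label and 5.65, 3.85 and 7.79 CPM under the MSC-TPr label, and its log2 fold change of 0.17 had a 95% interval from -0.90 to 1.23 (edgeR adjusted p = 0.890), and was 0.71 (edgeR adjusted p = 0.153) without both libraries numbered 1.

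Summed per kilobase, the INK4 genes reached 364, 297 and 328 CPM per kb under the Ctl MSC label and 210, 235 and 196 CPM per kb under the MSC-TPr label. Cdkn2a made up 77.9% to 84.9% of this sum in every library. The share of Cdkn2c was 2.72%, 0.716% and 0.789% under the Ctl MSC label and 1.32%, 2.99% and 3.86% under the MSC-TPr label. The ratio of Cdkn2a to Cdkn2b per kb was 4.955, 6.31 and 6.14 under the Ctl MSC label and 5.75, 4.70 and 5.02 under the MSC-TPr label. It was lower in Ctl MSC 1 and MSC-TPr 2 and 3, where the cell division genes were high.

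**Figure D2:**
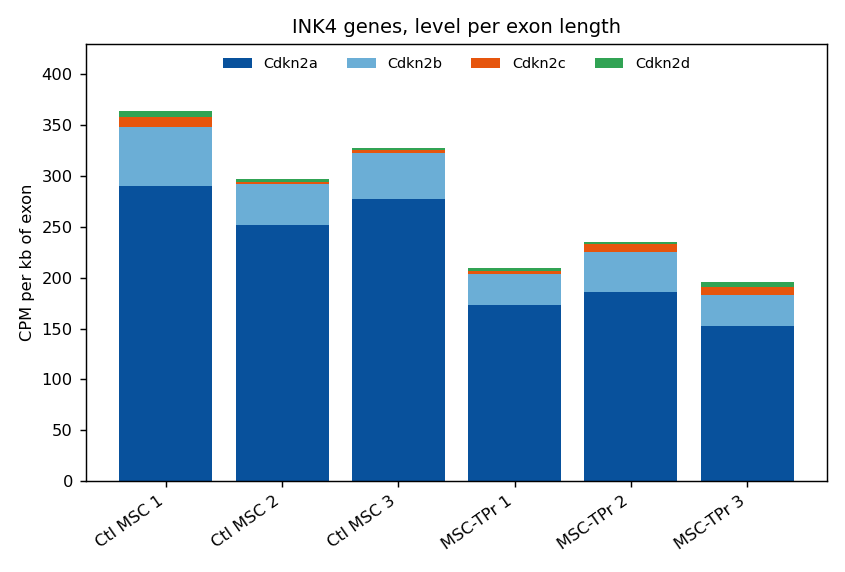
Stacked bars of the INK4 genes in each library, in CPM per kilobase of exon. Cdkn2a (dark blue) makes up most of each bar, and the whole bars reach 297 to 364 under the Ctl MSC label and 196 to 235 under the MSC-TPr label.

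Cdkn1b, on chromosome 6 from 134920401 to 134925513, encodes p27, which is regulated largely by degradation of the protein. It measured 53.4, 66.1 and 66.7 CPM under the Ctl MSC label and 80.0, 53.1 and 70.2 CPM under the MSC-TPr label. The lowest libraries were Ctl MSC 1 and MSC-TPr 2 and the highest was MSC-TPr 1, and the groups overlapped. The log2 fold change was 0.13 (95% interval -0.35 to 0.60, edgeR adjusted p = 0.811), and its sign turned to -0.10 without both libraries numbered 1.

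The pocket proteins differed among themselves. Rb1, which encodes the retinoblastoma protein, measured 20.8, 27.4 and 25.9 CPM under the Ctl MSC label and 54.2, 27.6 and 24.3 CPM under the MSC-TPr label. MSC-TPr 1 alone lay apart, and its log2 fold change of 0.52 (95% interval -0.29 to 1.32, edgeR adjusted p = 0.520) became 0.07 without that library and -0.04 without both libraries numbered 1. Rb1 lies on chromosome 14 from 73183673 to 73325822, and 105 bases of its exons overlap Rcbtb2 on the opposite strand. The counting is not stated to use the strand, so that reads there cannot be assigned to either gene.

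Rbl1 encodes p107, the pocket protein that is itself made in cycling cells. It measured 37.9, 16.2 and 14.6 CPM under the Ctl MSC label and 14.2, 37.3 and 42.4 CPM under the MSC-TPr label, high in the same 3 libraries as Cdkn2c. Over all 6 libraries its log2 fold change was 0.45 (95% interval -0.81 to 1.71, edgeR adjusted p = 0.738), and without both libraries numbered 1 it was 1.37 (SE 0.138, edgeR adjusted p = 0.00096). Rbl2 encodes p130, the pocket protein of quiescent cells and a component of the DREAM repressor. It went the other way, with 41.9, 57.7 and 62.6 CPM under the Ctl MSC label and 58.9, 27.5 and 44.7 CPM under the MSC-TPr label. Ctl MSC 1, MSC-TPr 2 and MSC-TPr 3 held its lowest values.

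The log2 fold change of Rbl2 was -0.31 over all 6 libraries (95% interval -1.04 to 0.43, edgeR adjusted p = 0.691) and -0.73 without both libraries numbered 1 (SE 0.230, edgeR adjusted p = 0.044). Rbl2 lies on chromosome 8 from 91070057 to 91123844, and its exons overlap Aktip and Gm45464 on the opposite strand over 826 bases. The ratio of Rbl1 to Rbl2 per kb was 0.918, 0.285 and 0.236 under the Ctl MSC label and 0.244, 1.38 and 0.959 under the MSC-TPr label. It differed more between libraries of a label than between the labels.

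E2f1 encodes an activating E2F factor that is transcribed from late G1 onward. It measured 39.3, 24.3 and 26.2 CPM under the Ctl MSC label and 24.7, 45.1 and 42.7 CPM under the MSC-TPr label, again high in Ctl MSC 1 and MSC-TPr 2 and 3. The log2 fold change was 0.33 over all 6 libraries (95% interval -0.40 to 1.05, edgeR adjusted p = 0.662) and 0.80 without both libraries numbered 1 (SE 0.12, edgeR adjusted p = 0.0037).

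E2f4 encodes the main repressive E2F of quiescent cells, which works with p107 and p130. It measured 71.1, 59.7 and 61.7 CPM under the Ctl MSC label and 89.1, 107 and 99.6 CPM under the MSC-TPr label. All MSC-TPr libraries lay above all Ctl MSC libraries, with a ratio of the means of 1.54. Within each label E2f4 was higher where the cell division genes were high, in Ctl MSC 1 and in MSC-TPr 2 and 3. The part of cell division in these values was not tested. The log2 fold change was 0.62 (SE 0.150, 95% interval 0.26 to 0.98, edgeR adjusted p = 0.157) over all 6 libraries and 0.77 without both libraries numbered 1 (SE 0.112, edgeR adjusted p = 0.0033). DESeq2 over all 6 gave 0.63 (adjusted p = 0.016), and leaving out each library gave 0.56 to 0.71. E2f4 lies on chromosome 8 from 105297663 to 105305370, and E2f1 on chromosome 2 from 154559407 to 154569892.

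Without both libraries numbered 1, 6 of the 10 members were called: Cdkn2c, Rbl1, E2f1 and E2f4 rose and Cdkn2a and Rbl2 fell. In that comparison 20.6% of all genes tested were called higher and 19.4% lower, and 77.3% did not overlap between the groups, against 7 of the 10 members. The comparison rests on 2 libraries per label that also differ in cell division, so that the label and the level of division cannot be told apart there. Between the counts of Ctl MSC 2 and 3, chi-square per gene was 4.76, and between MSC-TPr 2 and 3 it was 50. Pairs of a label that held library 1 gave 154 to 191. Small SEs over 4 libraries rest on these close pairs, whose origin is not stated.

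**Figure D3:**
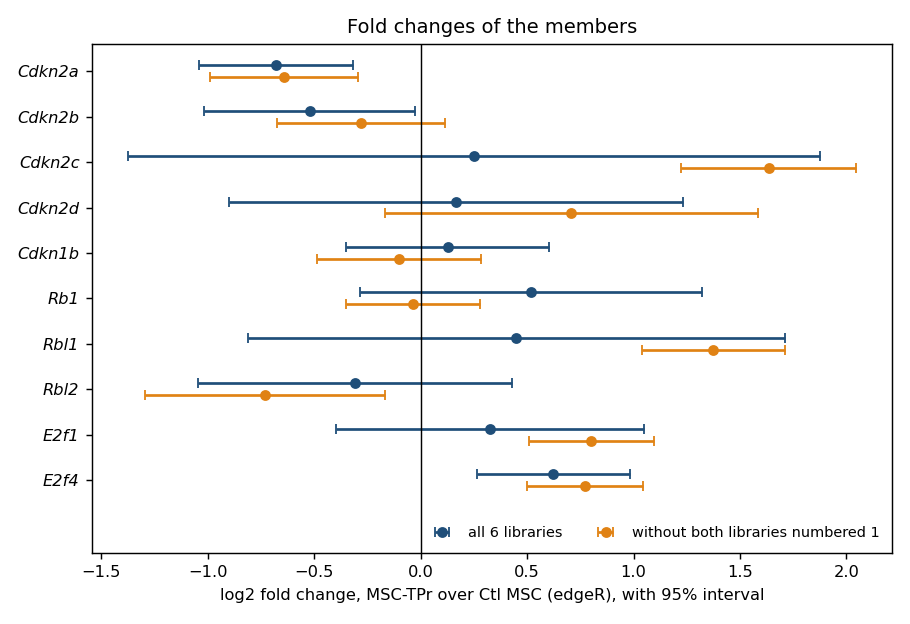
Log2 fold change of each member in MSC-TPr over Ctl MSC with its 95% interval from edgeR, over all 6 libraries (blue) and without both libraries numbered 1 (orange). The intervals of Cdkn2a and E2f4 lie on one side of 0 in both fits, while those of Cdkn2c, Rbl1, E2f1 and Rbl2 span 0 over 6 libraries and do not over 4.

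The members were then set beside lists of genes that act with them, 106 genes in 12 lists, of which 100 were tested. Over all 6 libraries edgeR called none of the 100. At an unadjusted p under 0.05 there were 6, against 6.81% of all genes higher and 8.23% lower, and DESeq2 called 1, Igfbp5. Without both libraries numbered 1, edgeR called 66, where 20.6% of all genes were called higher and 19.4% lower.

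The E2F target genes, 20 genes of DNA replication and S phase entry, were high in the same libraries as Cdkn2c, Rbl1 and E2f1. Whether cell division accounts for the values of these 3 members was not tested. Their mean log2 CPM was 6.35, 4.43 and 4.47 under the Ctl MSC label and 4.24, 6.38 and 6.15 under the MSC-TPr label. None was called over 6 libraries and none had an unadjusted p under 0.05, with a median log2 fold change of 0.41. Over 4 libraries, 17 of 20 were called higher (median 1.70), where 20.6% of all genes tested were called higher. Of the other E2F and DP factors, the groups did not overlap in 2 of 8. E2f3, an activating E2F, measured 52.3 to 63.9 CPM under the Ctl MSC label and 30.3 to 42.6 CPM under the MSC-TPr label. It differed by -0.59 on the log2 scale (SE 0.187, edgeR adjusted p = 0.229), and by -0.36 (edgeR adjusted p = 0.046) without both libraries numbered 1. E2f6, a repressor that does not bind RB proteins, measured 26.7 to 30.5 CPM and 34.9 to 39.0 CPM, a log2 difference of 0.39 (SE 0.149, edgeR adjusted p = 0.297) that was 0.43 (edgeR adjusted p = 0.034) without both.

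Among 8 G1 cyclins and kinases, the groups did not overlap in 1. This was Cdk4, the kinase that INK4 proteins bind, which measured 465, 460 and 493 CPM under the Ctl MSC label and 381, 374 and 322 CPM under the MSC-TPr label (log2 fold change -0.40, SE 0.147, edgeR adjusted p = 0.283). Without both libraries numbered 1 it was -0.45 (edgeR adjusted p = 0.035), short of the 0.5 that a call required, and 641 bases of its exons overlap Tspan31 on the opposite strand. Of the 7 genes of the MuvB core and its MYB and FOXM1 partners, only Rbbp4, a histone-binding subunit of several complexes, did not overlap, with 317 to 352 CPM against 229 to 278 CPM (log2 fold change -0.39, edgeR adjusted p = 0.292). It was -0.41 (edgeR adjusted p = 0.033) without both libraries numbered 1. Its exons overlap Gm26722 and Sync on the opposite strand. Without both libraries numbered 1, edgeR called 4 of the 7 higher, Mybl2 (3.44), Foxm1 (2.40), Lin9 (1.585) and Lin54 (0.71). It called 1 lower, Lin52 (-0.54), where 20.6% of all genes tested were called higher and 19.4% lower.

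Of the CIP/KIP inhibitors besides p27, Cdkn1a, which encodes p21 and is induced by p53, measured 9.43, 4.97 and 5.85 CPM under the Ctl MSC label and 7.92, 12.5 and 7.05 CPM under the MSC-TPr label (log2 fold change 0.44, 95% interval -0.40 to 1.28, edgeR adjusted p = 0.608). Without both libraries numbered 1 it was 0.85 (95% interval 0.11 to 1.58, edgeR adjusted p = 0.063). Cdkn1c, which encodes p57, had 15, 32 and 21 reads under the Ctl MSC label and 10, 2 and 8 under the MSC-TPr label, a log2 difference of -1.83 (SE 0.574, edgeR adjusted p = 0.227) that was -2.44 (edgeR adjusted p = 0.012) without both libraries numbered 1. Its MSC-TPr 2 value of 0.118 CPM lay under the limit of detection of that library. Exons of both genes overlap a gene on the opposite strand, AC167363.2 and Gm44732. The axis through which ARF acts gave no call: the log2 fold change was -0.20 for Mdm2 (95% interval -0.73 to 0.32), 0.17 for Mdm4 (-0.58 to 0.91) and 0.07 for Trp53 (-0.32 to 0.46). Among the libraries numbered 2 and 3, these were -0.42 (edgeR adjusted p = 0.024), -0.27 (edgeR adjusted p = 0.17) and 0.18 (edgeR adjusted p = 0.37), again with no call. Trp53 itself measured 164 to 215 CPM over the 6 libraries.

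Of 16 regulators of the Ink4a-Arf locus, 15 were tested, and over all 6 libraries edgeR and DESeq2 called none and none had an unadjusted p under 0.05. Over the 4 libraries numbered 2 and 3, edgeR called 6, where 20.6% of all genes tested were called higher and 19.4% lower. These libraries also differ in cell division, so that the label and the level of division cannot be told apart there. The Polycomb subunit gene Cbx7 fell by 2.27 on the log2 scale, and the histone demethylase genes Kdm2b and Kdm6b fell as well (-0.81 and -0.66). Id1, which encodes an inhibitor of helix-loop-helix factors, rose by 1.36, and the Polycomb genes Ezh2 and Eed rose by 0.85 and 0.77. Bmi1, the Polycomb protein that represses Cdkn2a, measured 153, 153 and 146 CPM under the Ctl MSC label and 173, 172 and 169 CPM under the MSC-TPr label. These did not overlap, but the log2 fold change was 0.19 (SE 0.124, edgeR adjusted p = 0.526), and without both libraries numbered 1 it was 0.19 (edgeR adjusted p = 0.19). The groups also did not overlap for Ring1, the E3 ligase partner of BMI1, at 11.3 to 12.3 against 12.5 to 15.3 CPM, and for Cbx8, a chromodomain subunit of the same complex, at 7.79 to 10.2 against 6.31 to 7.31 CPM. With libraries 2 and 3 alone, they differed by 0.28 (edgeR adjusted p = 0.21) and -0.51 (edgeR adjusted p = 0.055) on the log2 scale. Over all 6 libraries, 2 of the 15 regulators were higher and 1 lower without overlap, beside 10.6% and 12.1% of all genes tested. None of the 10 genes of p27 turnover and transcription had an unadjusted p under 0.05 or groups without overlap, and edgeR and DESeq2 called none over all 6 libraries, with a median log2 fold change of 0.05. Among the libraries numbered 2 and 3, edgeR called 5, where 20.6% of all genes tested were called higher and 19.4% lower. The same difference in cell division applies there. Skp2 and Cks1b, parts of the ligase that marks p27 for degradation, rose by 0.81 and 0.67 on the log2 scale. Foxo3 and Foxo4, which encode factors that activate Cdkn1b, fell (-0.87 and -1.005), as did Rnf123, which encodes a ligase for p27 in the cytoplasm (-1.10).

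Markers of senescence did not move as one list. Lmnb1, Hmgb1 and Hmgb2, whose products are typically lost in senescent cells, were high in Ctl MSC 1 and MSC-TPr 2 and 3. Lmnb1 measured 75.1, 20.7 and 19.9 CPM under the Ctl MSC label and 16.1, 48.8 and 62.3 CPM under the MSC-TPr label. Hmgb2 measured 169, 37.0 and 38.2 CPM and 24.3, 173 and 146 CPM, and Hmgb1 758, 301 and 317 CPM and 299, 663 and 608 CPM, in the same order of libraries. Their log2 fold changes over all 6 libraries were 0.14, 0.49 and 0.19, with 95% intervals that span 0. Over the 4 libraries numbered 2 and 3, all 3 rose, Lmnb1 by 1.46 (edgeR adjusted p = 0.0012), Hmgb2 by 2.09 (edgeR adjusted p = 0.00024) and Hmgb1 by 1.04 (edgeR adjusted p = 0.0016).

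Of 16 secreted factors and enzymes that senescent cells often produce, 13 were tested. Igfbp5, an IGF-binding protein, was the 1 gene whose groups did not overlap, with 3.69, 1.28 and 1.49 CPM under the Ctl MSC label and 14.6, 7.34 and 26.9 CPM under the MSC-TPr label. Its log2 fold change was 2.92 (SE 0.629, edgeR adjusted p = 0.126), and DESeq2 called it with 2.94 (adjusted p = 0.00012). With libraries 2 and 3 alone, it was 3.64 (edgeR adjusted p = 0.0076). The median over the list was -0.07 over all 6 libraries and 1.19 without both libraries numbered 1, where 8 were called higher and 1 lower. In that fit 20.6% of all genes tested were called higher and 19.4% lower. Il1a and Il1b had 0 or 1 read in each library, and Glb1, the lysosomal enzyme behind senescence-associated β-galactosidase staining, measured 41.8 to 55.5 CPM (log2 fold change -0.10, 95% interval -0.53 to 0.33, and -0.14 without both libraries numbered 1). The level of Cdkn2a was high in every library, in those with high as in those with low expression of division genes, Lmnb1 and Hmgb2.

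**Figure D4:**
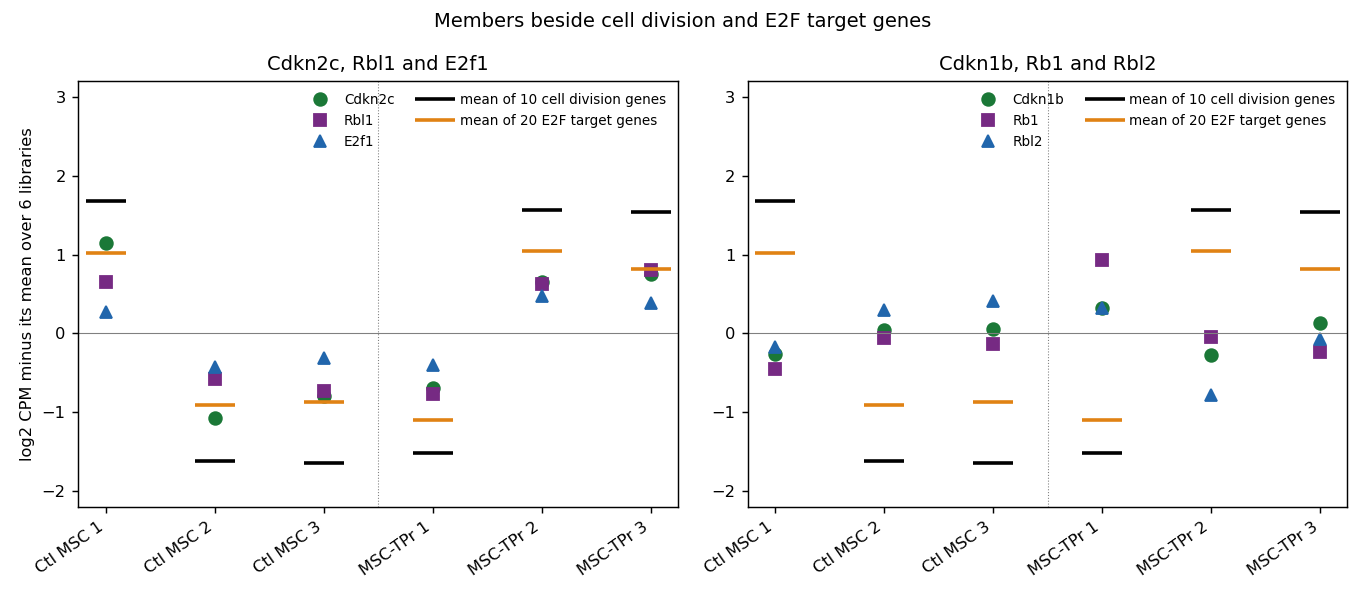
Log2 CPM of members in each library minus the mean over 6 libraries, with the same for the mean of 10 cell division genes (black bars) and 20 E2F target genes (orange bars). Cdkn2c, Rbl1 and E2f1 (left) are above 0 in Ctl MSC 1 and MSC-TPr 2 and 3, where both lists are high, while Rbl2 (right) is below 0 in these libraries.

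Genes whose profiles over the 6 libraries were closest to those of the members were sought among 11481 genes with a mean of at least 1 CPM, by the root mean square (RMS) difference between log2 CPM profiles, each centred on its mean. For Cdkn2a these were Tmem173, which encodes the innate sensor adaptor STING, with an RMS difference of 0.061, and E130307A14Rik with 0.072. Tmem173 measured 19.6, 16.8 and 17.8 CPM under the Ctl MSC label and between 9.65 and 11.4 CPM under the MSC-TPr label. For E2f4 they were Akt1 (0.039) and Aldoa (0.042), and for Cdkn2b Mterfd3 (0.044) and Ccdc53 (0.065).

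The closest genes to E2f1 were Rnaseh2b (0.043), a subunit of the RNase that removes RNA from DNA, and Abhd11 (0.059). For Rbl1 they were Fkbp5 (0.070) and Fah (0.088), and for Cdkn2c Tspo (0.088) and S100a13 (0.098), which share its high values in Ctl MSC 1 and MSC-TPr 2 and 3. Rbl2 was closest to Ski (0.071) and Dennd1a (0.074), Cdkn1b to Tsc22d4 (0.046) and Rps6ka1 (0.047), Rb1 to Pigw (0.086) and Alkbh3 (0.087), and Cdkn2d to Syt11 (0.121) and Tle6 (0.129). These differences describe 6 libraries and carry no test.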

How the data were processed

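RNA-seq counts of 3 Ctl MSC and 3 MSC-TPr libraries were used, with groups taken from the sample labels. The authors aligned paired-end reads of stranded polyadenylated RNA libraries to mm10 and deposited whole-number counts per gene from Htseq-count, without normalization. The submitters' processing notes list CASAVA 1.8.2, Trimmomatic 0.35 and TopHat2 2.1.0, and the strand setting of the counting is not given in the sources used here. Summary lines for reads on no gene (13.8% to 20.8% of the reads listed) were left out.

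Differences were fitted by edgeR 4.0.16 under R 4.3.3 (TMM, filterByExpr, quasi-likelihood test on group alone, Benjamini-Hochberg adjustment over all 11974 genes tested). DESeq2 1.42.0 (Wald test) was an alternative. Calls needed adjusted p below 0.05 with a log2 difference of 0.5 or more either way. SEs were derived from the F statistic. CPM use TMM-scaled library sizes, and log2 CPM a prior count of 2. Exon lengths and overlaps come from GENCODE M21 (21777 of 23420 symbols matched), and promoters from RefSeq, GRCm38.p6. Both tools were tested on simulated counts with known changes. The members and lists were chosen with earlier results of these data known. Named in the lists are called genes, otherwise up to 4 genes whose groups did not overlap, and short lists in full. Glb1, Il1a and Il1b were named after their values were seen. The alternatives were other normalizations and filters, DESeq2, the replicate number as a block, leaving out libraries singly and leaving out both libraries numbered 1.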

Additional observations from a re-analysis of the deposited data

How the results depend on the processing

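Leaving out both libraries numbered 1 moved the results most: 6 instead of 0 members and 4854 instead of 51 genes were called, 7 instead of 3 members did not overlap between the groups, and the log2 fold changes of Cdkn1b and Rb1 turned to -0.103 and -0.0371. DESeq2 called 2 members and 683 genes, and a minimum of 10 counts in every library left 31 genes called. RLE and upper quartile scaling changed the direction or call of no member. With each library left out in turn, 0 members were called in every fit, 0 to 108 genes were called (108 without Ctl MSC 1, 44 without MSC-TPr 1, 1 without MSC-TPr 2 and 0 without each of the other 3), 3 to 4 members did not overlap, and log2 fold changes ran from -0.00756 to 0.279 for Cdkn1b, from -0.11 to 1.30 for Cdkn2c and from -0.11 to 0.68 for Cdkn2d, while no other member changed sign. The values ran from 0.177 to 1.02 for Rbl1, from 0.177 to 0.574 for E2f1 and from -0.581 to -0.058 for Rbl2. They ran from 0.0725 to 0.733 for Rb1 and from -0.657 to -0.349 for Cdkn2b. The upper ends of Rbl1, E2f1, Cdkn2c, Cdkn2d and Cdkn2b came without Ctl MSC 1, and without MSC-TPr 2 Rbl2 was closest to 0.

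The replicate numbers are shared by the labels, but same-numbered libraries deviated in opposite directions from their group means. The correlations across genes were -0.765, -0.594 and -0.604 for numbers 1, 2 and 3. Library 2 of each label against library 3 of the other gave -0.577. Deviations from a group mean depend on each other, and library 1 lay apart under both labels. Whether the numbers pair the libraries therefore cannot be told from these correlations. A fit with the replicate block called 0 members and 0 genes, and no member changed sign in it. Members had 59 reads or more in every library, and the common dispersion was 0.124 over 6 libraries and 0.0168 over 4; the part of depth and of spread in the number of calls was not tested.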
